A study of Mus musculus with 16 samples.

Results

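The 10 genes of enzymes that carry acetyl units into long-chain and unsaturated fatty acids were measured by RNA-seq in mouse BCR-ABL1p185+ leukemic cell lines with and without CDK8. The group was given by name and consists of Acss2, Acly, Acaca, Fasn, Elovl5, Elovl6, Fads1, Fads2, Scd1 and Scd2, that is 10 of the 50686 genes counted, of which 29942 had a count in at least 1 library. The rule that named the group used no measured value, but the genes were chosen with earlier results of these data known. All 10 genes passed the filter on low counts in each comparison. The cells were 8 individually derived C57BL/6N bone marrow lines transformed with a BCR-ABL1p185 retrovirus: 4 Cdk8 fl/fl lines, which the labels call wildtype, and 4 Cdk8 Δ/Δ Vav-Cre lines, which the labels call Cdk8 knockout. Vav-Cre removes the floxed part of the gene throughout the hematopoietic system from early development, so these cells, called CDK8-deficient from here on, had lacked CDK8 since before transformation. Each line was sampled after 48 h with 0.01% DMSO and after 48 h with 1 µM Senexin B, an inhibitor of the kinase activity of CDK8 and its paralog CDK19, which gave 4 groups of 4 libraries. The genotype comparisons set lines against lines, whereas the Senexin B comparisons set the libraries of the same lines against each other. The labels give neither the age nor the sex of the mice from which the lines came.

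ACSS2 and ACLY make cytosolic acetyl-CoA from acetate and citrate, ACACA carboxylates it to malonyl-CoA, and FASN joins these units into palmitate. ELOVL6 lengthens palmitate and ELOVL5 lengthens polyunsaturated chains, while SCD1 and SCD2 introduce the double bond that yields oleate and palmitoleate, and FADS2 and FADS1 desaturate the polyunsaturated series. Transcription of these genes is driven largely by SREBP1, which is held in the endoplasmic reticulum by SCAP and INSIG proteins when sterols are plentiful, and CDK8 is known to phosphorylate nuclear SREBP1 and so to restrain it.

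The start regions of the genes were read to see which short motifs they hold. RefSeq promoter windows of 300 bases on GRCm38.p6 were matched for 7 of the 10 genes, and not for Fads1, Scd1 and Scd2. The Acaca window (chr11:84195188-84195487, plus strand) lies inside the gene, whose counted model starts at 84129672, so the upstream start of Acaca was not read. Searched on both strands, a CCAAT box (CCAAT, the site of NF-Y) was present in 4 of the 7 windows (Acss2, Acly, Fasn and Elovl5) and in 37.41% of 32851 mouse promoters. A GC box (GGGCGG, the site of Sp factors) was present in 3 of 7 windows and in 35.66% of promoters, an E-box (CACGTG) was present in the Elovl5 window only and in 7.15%, and the sterol response letters TCACNCCAC were in none of the 7 windows and in 1.24%. A match is a run of letters and no measurement of binding. The 120 bases on the upstream side of Fasn and Elovl5 are shown because these windows held the most CCAAT boxes, 3 and 2; the boxes are in capitals, written as ATTGG where they lie on the other strand, and the Fasn pair overlaps.
Fasn, chr11:120824548-120824667, minus strand: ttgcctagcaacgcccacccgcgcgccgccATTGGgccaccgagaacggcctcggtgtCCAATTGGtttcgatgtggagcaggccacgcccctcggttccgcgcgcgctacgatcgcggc
Elovl5, chr9:77917245-77917364, plus strand: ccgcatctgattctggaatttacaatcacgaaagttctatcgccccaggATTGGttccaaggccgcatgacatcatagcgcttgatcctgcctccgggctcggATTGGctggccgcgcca

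Library totals ran from 13145876 to 18349425 counts with a median of 15473664. All 9 pro-B markers had means above 1 CPM (counts per 1000000 of library size, scaled by TMM) in every group, their summed level running from 5265 to 7945 CPM, and Alb and Cyp7a1, which mark hepatocytes, had no count in any library. Of 6 adipocyte markers only Lpl reached a group mean of 1 CPM, with at most 4.44 CPM, so the lipogenic transcripts were measured in cells whose own markers were those of pro-B cells. The myeloid marker Lyz2 reached 24.6 CPM in 1 CDK8-deficient DMSO library. With DMSO, Cdk8 itself averaged 64.9 ± 3.03 CPM (SD, n = 4) across Cdk8 fl/fl lines and 44.3 ± 7.10 CPM (SD, n = 4) across CDK8-deficient lines, a difference of -0.55 on the log2(CPM + 1) scale with groups that did not overlap; by exact permutation, two-sided, p was 0.0286, which is the smallest p possible for 4 lines against 4. Counts cover the whole gene, whereas Cre removes only a part of it, so this value does not measure intact transcript. With Senexin B the Cdk8 groups overlapped, the difference was -0.42 and the exact permutation p was 0.114. No pair of libraries agreed within sampling noise over genes.

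Compared per kilobase of exon, as CPM divided by kilobases of exon (FPKM), the stearoyl-CoA desaturases stood highest and the cytosolic acetate and malonyl-CoA enzymes lowest. In Cdk8 fl/fl lines with DMSO, Scd1 was at 268 ± 76.7 and Scd2 at 220 ± 38.4 FPKM (SD, n = 4), and their ranges overlapped. The next 6 genes, Elovl5 (91.4 ± 11.0), Acly (72.9 ± 14.6), Fads2 (69.9 ± 7.49), Fads1 (56.2 ± 9.47), Elovl6 (49.0 ± 24.8) and Fasn (45.5 ± 5.25 FPKM, SD, n = 4), each overlapped the neighbor in this order, but all lay below Scd2. Acaca was at 1.26 ± 0.193 and Acss2 at 0.274 ± 0.178 FPKM (SD, n = 4), each apart from its neighbor. The length used covers all exons of a gene together, 17074 bases for Acaca and 10163 for Acss2. Levels by the length of single transcripts, which could change this order, were not computed. Of the 50-base words in the Acaca transcripts 30.4% also occur in transcripts of other genes, against 6.13% for Acss2, 4.56% for Scd1, 3.97% for Scd2, 3.98% for Elovl6, 0.152% for Fads2 and none for the other 4 genes, and how the counting treated such reads for Acaca was not tested. Scd1 and Scd2 share words with each other, so a part of their reads cannot be told apart. The counting used no strand option, and exons of Acss2 overlap those of Gss (3.89% of Acss2 exon bases), Acss2os (3.30%) and Ggt7 (1.94%) on the opposite strand, so reads there cannot be told apart either. Shorter overlaps were those of Elovl6 with Gm35986 (0.53%, opposite strand) and of Scd2 with Mir5114 (1.12%, same strand). Acss2 rested on 20 to 247 counts per library and Acaca on 254 to 911, whereas the other 8 genes had at least 792 counts in each library.

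**Figure D1:**
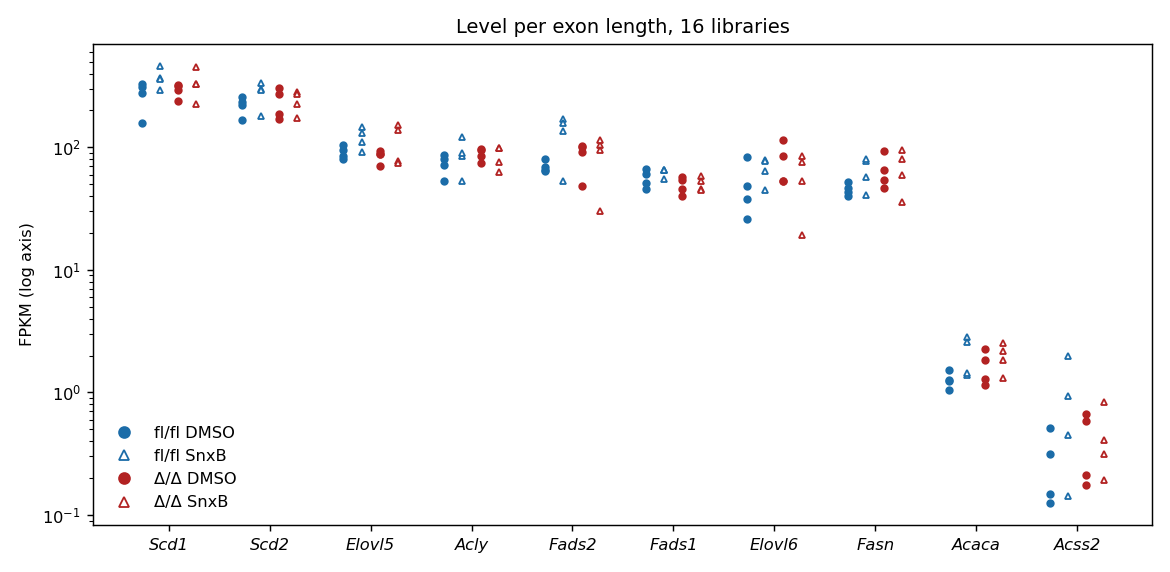
Level of each gene per kilobase of exon (FPKM, log axis) in the 16 libraries, ordered by the mean of the Cdk8 fl/fl DMSO libraries. Filled circles are DMSO and open triangles Senexin B (SnxB), with fl/fl for Cdk8 fl/fl and Δ/Δ for CDK8-deficient lines. Scd1 and Scd2 lie highest, and Acaca and Acss2 lie far below the other 8 genes in every group.

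The first comparison asked whether the lines without CDK8 carried more of these transcripts than Cdk8 fl/fl lines with DMSO. No member passed the limits of an adjusted p under 0.05 and a fold over 2 in edgeR's quasi-likelihood test, where 0.00759% of 13174 genes tested did so (1 gene). In CDK8-deficient lines 8 members had a higher and 2 (Elovl5 and Fads1) a lower fitted level, the median log2 difference over the 10 being 0.29 against 0.00 over all genes tested. Of the genes tested, 50.3% had a higher fitted level. No member had groups that did not overlap, against 1.48% of genes with all CDK8-deficient libraries higher and 1.66% with all lower. In bulk libraries a lower level in each cell and fewer cells with the transcript cannot be told apart.

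Fasn, the palmitate synthase, was the single member with an unadjusted p under 0.05 in this comparison, where 2.38% of genes were higher at that limit. Fasn was at 572, 513, 439 and 469 CPM in the Cdk8 fl/fl lines and at 508, 713, 588 and 1023 CPM in the CDK8-deficient lines. CDK8-deficient line 1 lay inside the Cdk8 fl/fl range and line 4 stood above all others. The log2 difference was 0.51 ± 0.22 (SE) with an unadjusted p of 0.0485 in edgeR's fit and an adjusted p of 0.897, and it did not pass.

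Elovl6, the palmitate elongase, had the largest fitted difference with DMSO, 0.65 ± 0.40 (SE) on the log2 scale (edgeR, adjusted p = 0.908). Its levels were 538, 244, 311 and 168 CPM in the Cdk8 fl/fl lines and 341, 542, 342 and 741 CPM in the CDK8-deficient lines. The first Cdk8 fl/fl line was the highest of its group by far. Over the 8 fits that each left out a library the difference ran from 0.38 to 1.03. The highest value was that without this Cdk8 fl/fl library (edgeR, adjusted p = 0.423). Acss2 differed by 0.58 ± 0.60, Acaca by 0.37 ± 0.24, Fads2 by 0.30 ± 0.23, Acly by 0.27 ± 0.17, Scd1 by 0.13 ± 0.23 and Scd2 by 0.09 ± 0.23, all within about 2 standard errors of no difference. Elovl5 (-0.10 ± 0.13) and Fads1 (-0.19 ± 0.16) were fitted lower by amounts of the size of their errors.

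With Senexin B in both genotypes the fitted levels of 9 of the 10 genes were lower in the lines without CDK8 (49.4% of all genes were fitted higher there), Fasn being the exception at 0.08 ± 0.33 (SE) on the log2 scale. No gene of 13010 passed the limits in edgeR (0%), 202 had an unadjusted p under 0.05, and DESeq2 called 10 genes, none of them a member. The median over the members was -0.17 against 0.00 over all genes. Fads1, the delta-5 desaturase, came closest, with 192, 226, 226 and 227 CPM in Cdk8 fl/fl and 159, 201, 184 and 155 CPM in CDK8-deficient lines. A single CDK8-deficient line exceeded the lowest Cdk8 fl/fl line, and the log2 difference was -0.32 ± 0.15 (SE; edgeR, adjusted p = 0.9997). Acss2 was the furthest below (0.501-fold, with an SE of 0.76 on the log2 scale), followed by Fads2 (0.666-fold, SE 0.47), both with overlapping groups. Adding the libraries of each line gave differences from -0.38 for Acss2 to 0.28 for Fasn, with 4 members higher and 6 lower and a median of -0.04, and none passed where 0.00676% of 14791 genes did.

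**Figure D2:**
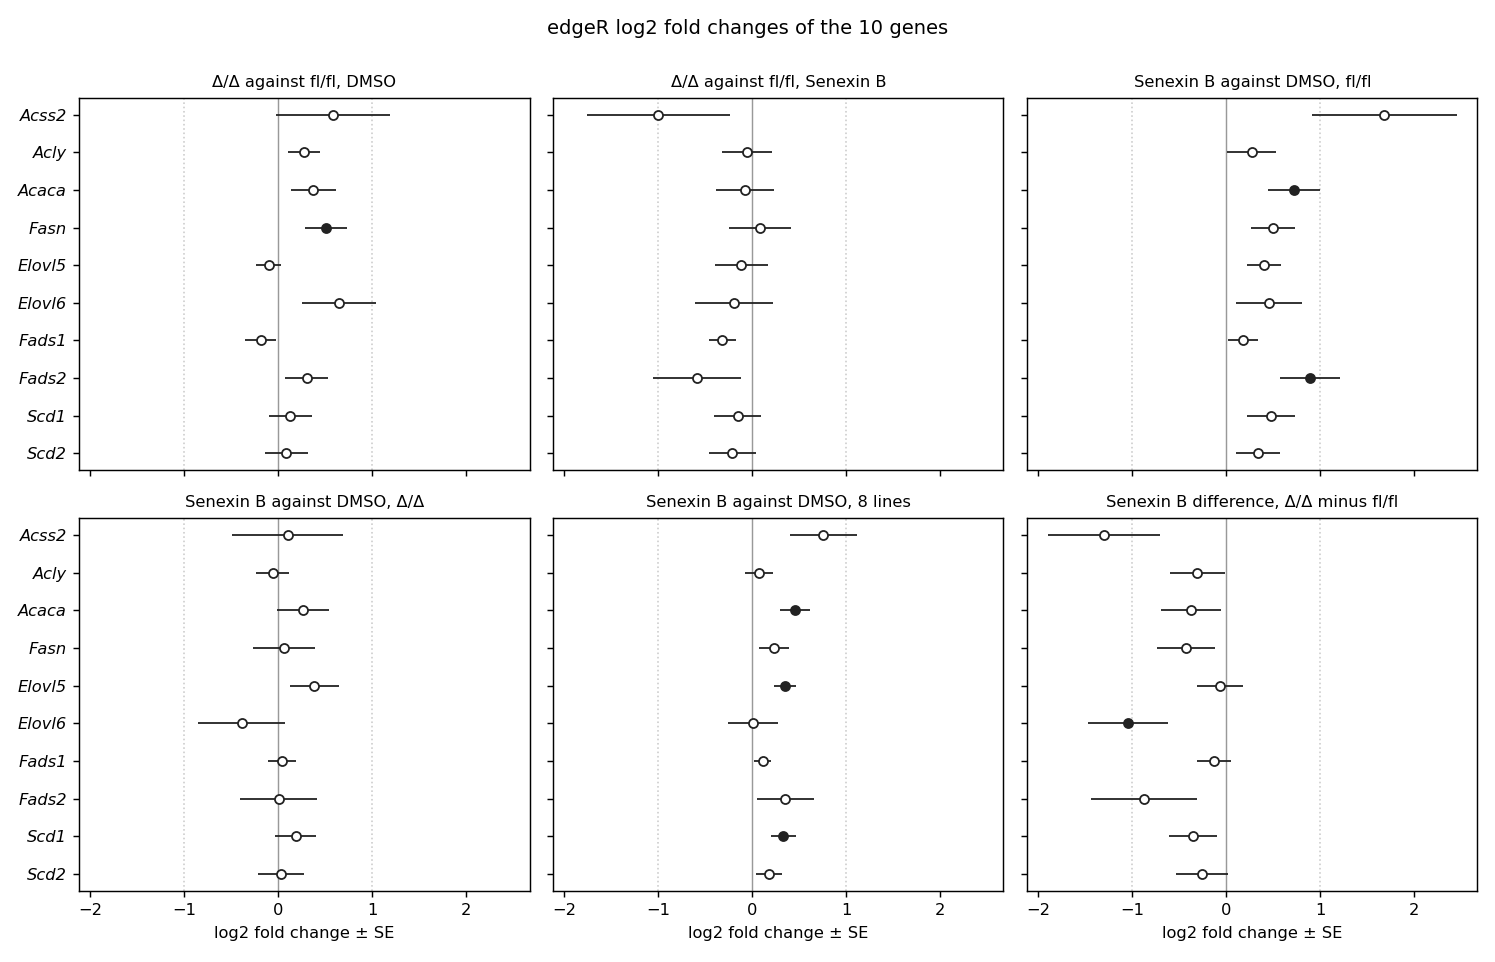
Log2 fold change of each gene in edgeR's quasi-likelihood fits (points) with its standard error (bars), in 6 panels: genotype with DMSO, genotype with Senexin B, Senexin B within Cdk8 fl/fl lines, within CDK8-deficient lines, over the 8 lines, and the difference of the Senexin B effects. The panels within Cdk8 fl/fl and within CDK8-deficient lines are from fits without a line block. Filled points have an unadjusted p under 0.05 and dotted lines mark a fold of 2. All 10 points lie right of 0 for Senexin B in Cdk8 fl/fl lines and over the 8 lines, and left of 0 in the last panel, while no gene passed the limits.

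The second comparison asked what Senexin B did within lines that carry CDK8. The fits within a genotype did not pair the libraries of a line, except where a line block is named. In Cdk8 fl/fl lines all 10 genes were fitted higher with Senexin B, by a median of 0.47 on the log2 scale against 0.02 over all genes tested, and 52.9% of genes were fitted higher. No gene of 12989 passed the limits (0%), members included, while 493 genes had an unadjusted p under 0.05 and DESeq2 called 19 genes, none of them a member. Of the members 2, Fads2 and Acaca, were higher at an unadjusted p under 0.05, as were 1.89% of all genes. No member had groups that did not overlap (0.847% of genes did so upward), and Acss2, Scd1 and Scd2 were higher with Senexin B in 4 of 4 lines, as were 8.38% of genes.

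Fads2, the delta-6 desaturase that opens the polyunsaturated pathway, showed the pattern most clearly. With DMSO the 4 Cdk8 fl/fl lines were alike, at 105, 97.6, 121 and 97.3 CPM. With Senexin B lines 2, 3 and 4 were at 255, 237 and 206 CPM, whereas line 1 was at 80.5 CPM. Within lines this was 2.62-, 1.95- and 2.12-fold in lines 2, 3 and 4 and 0.766-fold in line 1. The fitted log2 fold change was 0.90 ± 0.32 (SE; edgeR, adjusted p = 0.9998), and it was 0.79 ± 0.28 with the line as a block (adjusted p = 0.3597).

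Acaca, the rate-limiting acetyl-CoA carboxylase, stood at 25.8, 21.2, 21.5 and 17.8 CPM with DMSO and at 23.7, 24.6, 48.8 and 44.0 CPM with Senexin B. Lines 3 and 4 were more than 2-fold higher, line 2 was 1.16-fold higher and line 1 was slightly lower. Its log2 fold change was 0.72 ± 0.28 (SE; edgeR, adjusted p = 0.9998). Fasn followed the same lines, from 572, 513, 439 and 469 CPM with DMSO to 448, 628, 843 and 876 CPM with Senexin B, a log2 fold change of 0.50 ± 0.23.

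Acss2, the cytosolic acetyl-CoA synthetase, had the largest fitted change and the lowest level. It was at 1.27, 5.16, 1.502 and 3.22 CPM with DMSO and at 1.44, 20.2, 9.48 and 4.54 CPM with Senexin B. Lines 2 and 3 were 3.92- and 6.31-fold higher, while line 1 hardly differed. The log2 fold change was 1.68 ± 0.77 (SE; edgeR, adjusted p = 0.9998) without and 1.42 ± 0.42 (adjusted p = 0.279) with the line block.

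Among the elongases, Elovl5 was at 338, 368, 283 and 299 CPM with DMSO and at 323, 514, 392.0 and 464 CPM with Senexin B. Line 1 alone was not higher, and the log2 fold change was 0.41 ± 0.18 (SE). Elovl6 was 2.96-fold higher in line 4, 1.64-fold in line 3 and 1.19-fold in line 2, and it was 0.772-fold in line 1, for a fitted 0.45 ± 0.35. The stearoyl-CoA desaturases differed from this order. Scd1 was at 763, 1491, 1593 and 1339 CPM with DMSO and at 1416, 1788, 2236 and 1740 CPM with Senexin B, so that line 1, lowest at the start, had the largest ratio, 1.86-fold. Scd2 was at 906, 1394, 1214 and 1288 CPM with DMSO and at 978.5, 1628, 1606 and 1813 CPM with Senexin B, higher by 1.08- to 1.41-fold in the 4 lines. Acly, the ATP citrate lyase, was at 376, 461, 422 and 282 CPM with DMSO and at 282, 449, 639 and 476 CPM with Senexin B, so lines 3 and 4 were higher and lines 1 and 2 lower. Fads1 stayed within 158 to 232 CPM over the 8 libraries. Acly (0.27 ± 0.26), Fads1 (0.17 ± 0.16) and Scd2 (0.34 ± 0.23) had the smallest fitted log2 differences.

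With the line as a block, 5 of 10 members had an unadjusted p under 0.05 and a higher level (Acss2, Acaca, Elovl5, Fads2 and Scd1), where 4.95% of genes were higher at that limit, but none passed, while 0.346% of genes did (45 genes). Line 1, in which 6 of the 10 genes were lower, was then left out with the block kept. This alternative was added after its values had been seen, so larger fitted changes for those genes follow from the choice. Fads2 (log2 fold change 1.15 ± 0.16, edgeR, adjusted p = 0.0025) and Acss2 (1.73 ± 0.35, adjusted p = 0.0156) passed the limits, as did 4.15% of 12976 genes (538 genes). Acaca reached an adjusted p of 0.0343 there with a fold under 2 (0.91 ± 0.22), and Fasn an adjusted p of 0.0504. Without line 2, 3 or 4 no member passed, and 0, 9 and 28 genes did. The Senexin B library of line 1 also held the highest Cdk8 level of its group, 89.4 CPM against 55.2 to 56.8 CPM in the other 3, and the DMSO library of line 1 was the only one whose count header named another annotation folder, with identical gene models. Whether either had a part in the result was not tested.

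**Figure D3:**
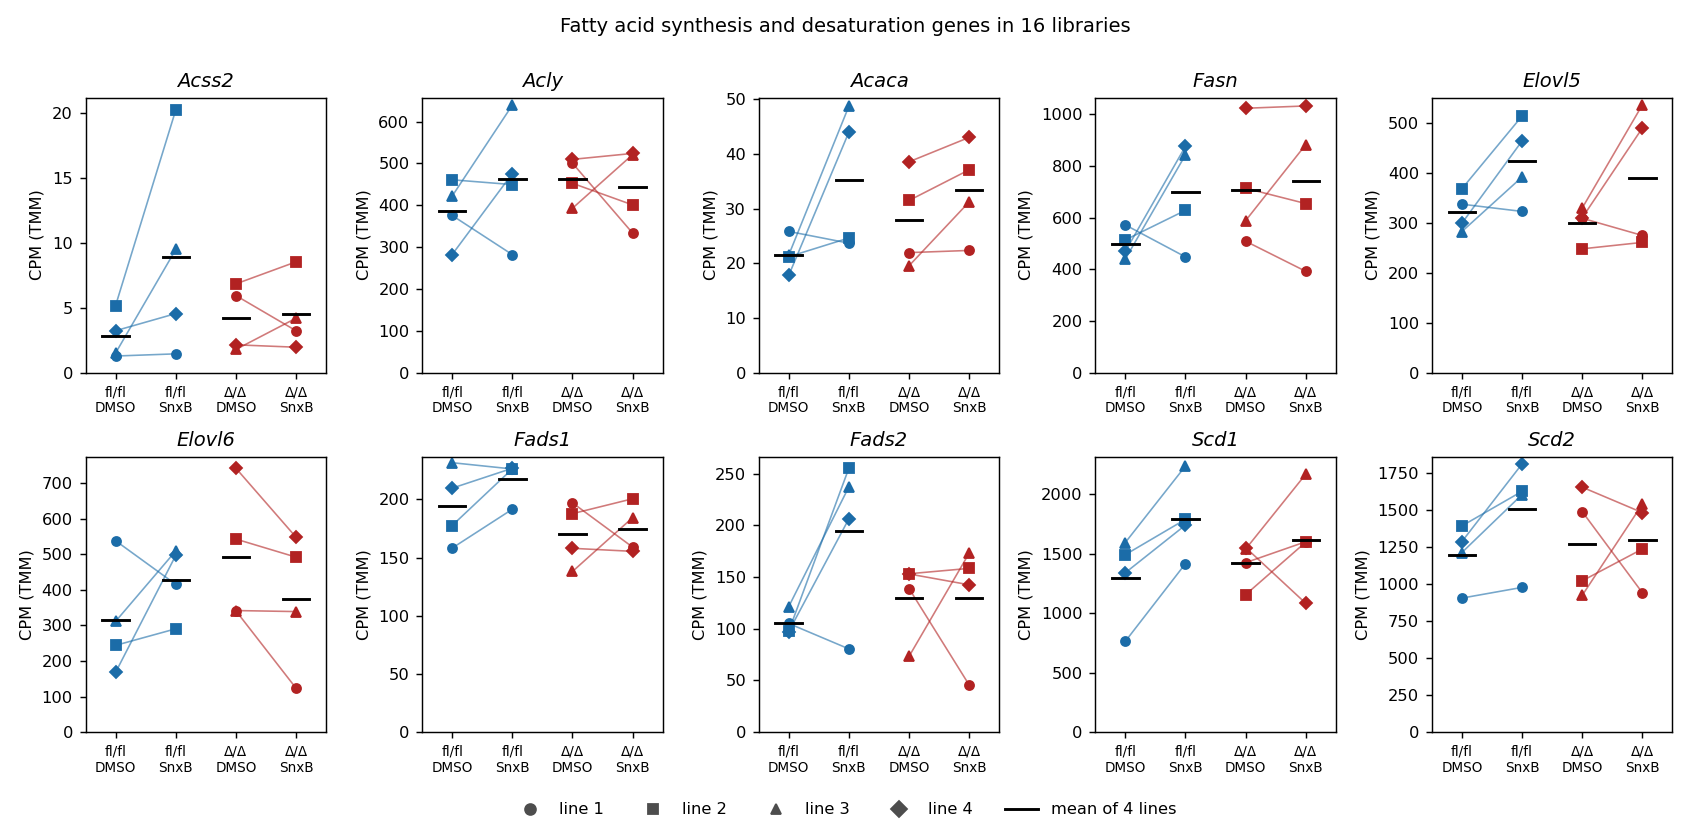
Level of each gene in CPM (linear axis from 0) in the 16 libraries, with each line's DMSO value joined to its Senexin B value. Symbols mark the line within its genotype, blue Cdk8 fl/fl (fl/fl) and red CDK8-deficient (Δ/Δ), and black bars the mean of 4 lines. For Fads2, lines 2, 3 and 4 of Cdk8 fl/fl lie at 206 to 255 CPM with Senexin B while line 1 is at 80.5 CPM, and the CDK8-deficient lines go both ways.

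In CDK8-deficient lines 8 of the 10 genes were fitted higher with Senexin B and 2 (Elovl6 and Acly) lower, where 51.5% of genes were fitted higher. The median log2 difference over the 10 was 0.05 against 0.01 over all genes, and no gene of 13285 passed the limits (0%), while 243 had an unadjusted p under 0.05, none of them a member, and DESeq2 called none. With the line block 7 genes passed (0.0527%), again none of them a member, and no member had an unadjusted p under 0.05. Fads2 was at 139, 153, 73.3 and 153 CPM with DMSO and at 45.5, 158, 173 and 142.5 CPM with Senexin B. It was 0.328-fold in line 1 and 2.36-fold in line 3 and hardly differed in lines 2 and 4, so that the fitted difference of 0.00 ± 0.41 (SE) is a mean over lines that went opposite ways. Elovl6 was at 341, 542, 342 and 741 CPM with DMSO and at 123, 492, 339 and 548 CPM with Senexin B. Its fitted difference was -0.39 ± 0.46, and -0.50 ± 0.23 with the line block. Elovl6 was lower in 4 of 4 lines, as were 10.3% of genes, but line 3 was nearly level at 0.992-fold. Elovl5 was at 309, 248, 329.7 and 310.2 CPM with DMSO and at 275, 261, 537 and 490.2 CPM with Senexin B, 1.63- and 1.58-fold higher in lines 3 and 4, with a fitted 0.39 ± 0.26. Acaca was at 21.96, 31.5, 19.6 and 38.6 CPM with DMSO and at 22.4, 37.1, 31.3 and 43.1 CPM with Senexin B. It was higher in 4 of 4 lines, as were 8.89% of genes, with ratios of 1.02- to 1.598-fold. Its fitted difference was 0.26 ± 0.28, and 0.27 ± 0.13 with the line block. For the other genes line 3 was higher in each case, and line 1 was lower for all but Scd1. Fasn was at 508, 713, 588 and 1023 CPM with DMSO and at 392, 654, 883 and 1032 CPM with Senexin B. Scd1 was at 1424, 1155, 1538 and 1551 CPM with DMSO and at 1600, 1597, 2168 and 1082 CPM with Senexin B, line 4 being the only one lower. Scd2, in contrast, was lower in lines 1 and 4, with 1491, 1023, 925 and 1656 CPM with DMSO and 942, 1238, 1541 and 1484 CPM with Senexin B. Acss2 was at 5.93, 6.83, 1.78 and 2.14 CPM with DMSO and at 3.22, 8.53, 4.19 and 1.95 CPM with Senexin B. Acss2 (0.10 ± 0.59), Scd1 (0.19 ± 0.22), Fasn (0.07 ± 0.33), Fads1 (0.04 ± 0.15), Scd2 (0.03 ± 0.24) and Acly (-0.06 ± 0.18) differed by less than their errors.

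Over the 8 lines together, with each line compared with itself, all 10 genes were fitted higher with Senexin B, by a median of 0.28 against 0.00 over all genes, of which 48.9% were fitted higher. None passed the limits, as 0.946% of 14164 genes did (134 genes, 81 higher and 53 lower). Of the members 3 were higher at an unadjusted p under 0.05, a limit that 7.79% of genes met upward. Elovl5 differed by 0.35 ± 0.12 (SE; edgeR, adjusted p = 0.143), Acaca by 0.46 ± 0.16 (adjusted p = 0.174) and Scd1 by 0.33 ± 0.13 (adjusted p = 0.232). These are folds of 1.27, 1.37 and 1.26. Acss2 had the largest fitted difference, 0.76 ± 0.35 (adjusted p = 0.318), and Elovl6 the smallest, 0.01 ± 0.26, being higher in 3 Cdk8 fl/fl lines and lower in the other 5 lines. Acaca and Scd1 were higher in 7 of 8 lines, where 7.66% of genes were higher in at least 7, and Acss2, Elovl5 and Scd2 were higher in 6 of 8, where 19.9% of genes were higher in at least 6.

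The difference between the Senexin B effects of the genotypes was tested as an interaction. All 10 interaction terms were negative (49.5% of all genes had a positive term), meaning a smaller increase or a larger decrease in CDK8-deficient lines, with a median of -0.36 against 0.00 over all genes. None passed, nor did any other of the 14164 genes in edgeR (0%) or DESeq2, while edgeR gave 459 genes an unadjusted p under 0.05. Elovl6 had the lowest p, with a term of -1.04 ± 0.43 (SE; unadjusted p = 0.0337 and adjusted p = 0.991 in edgeR), and 1.62% of genes were lower at that limit. Acss2 followed with -1.30 ± 0.59 (unadjusted p = 0.0516) and Fads2 with -0.87 ± 0.56 (unadjusted p = 0.151). The terms of the other 7 genes ran from -0.42 for Fasn to -0.06 for Elovl5. This comparison and those above share libraries, so the negative terms, the differences within Cdk8 fl/fl lines and those between genotypes are in part the same values.

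Within each genotype the lines differed in how the 10 genes moved with Senexin B. The median log2 ratio of Senexin B to DMSO over the 10 genes was -0.09, 0.28, 0.66 and 0.69 in Cdk8 fl/fl lines 1 to 4 and -0.48, 0.08, 0.63 and -0.06 in CDK8-deficient lines 1 to 4. Over all genes tested the median lay between -0.02 and 0.02 in each line. CDK8-deficient line 3, with 9 of 10 genes higher, was thus like Cdk8 fl/fl lines 3 and 4, with 9 and 10 of 10 higher, whereas the first lines of the genotypes had 6 and 8 of 10 genes lower. The range within a line was wide. In CDK8-deficient line 1, Fads2 and Elovl6 were 0.328- and 0.362-fold while Scd1 was 1.12-fold. In Cdk8 fl/fl line 3, Acss2 was 6.31-fold and Fads1 0.977-fold.

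**Figure D4:**
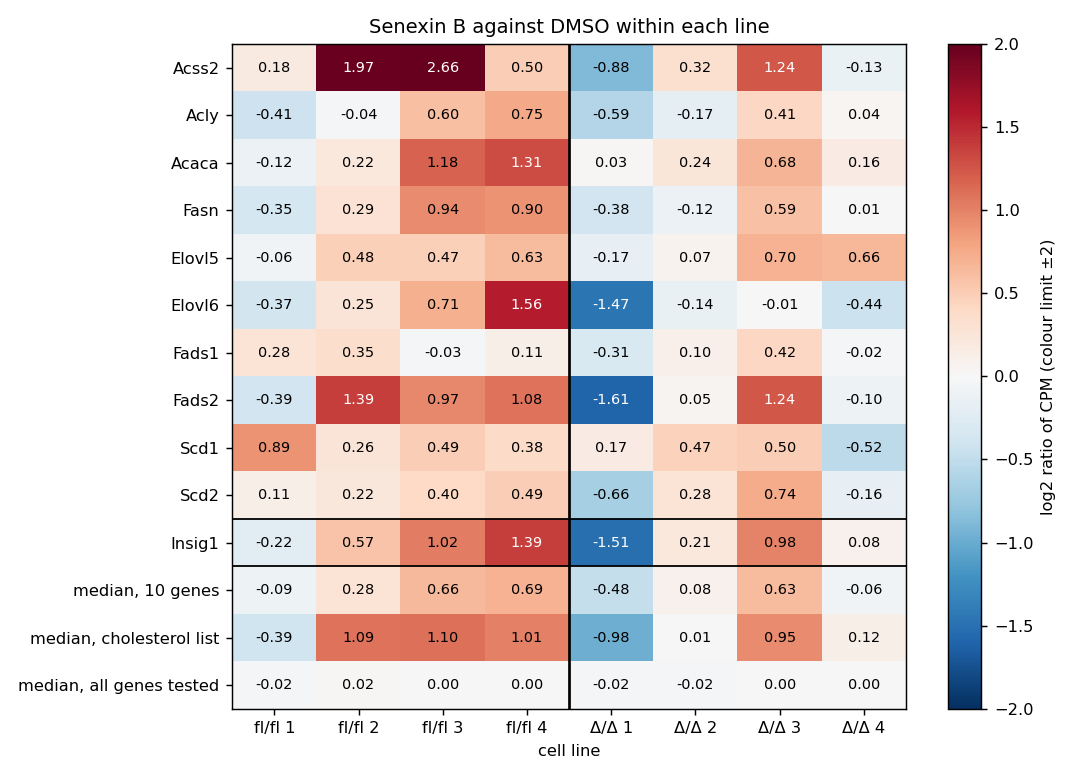
Log2 ratio of CPM with Senexin B to CPM with DMSO in each of the 8 lines (columns) for the 10 genes and Insig1, with the median over the 10 genes, over the cholesterol list and over all genes tested (rows); color saturates at ±2. The columns of Cdk8 fl/fl lines 2 to 4 and CDK8-deficient line 3 are mostly red, those of the first lines of each genotype mostly blue, and the last row stays near 0.

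The factors that act on these genes were themselves measured at the RNA level. Srebf1, which encodes SREBP1, was at 221 ± 26.4, 224 ± 23.6, 198 ± 12.8 and 206 ± 40.7 CPM (SD, n = 4) in Cdk8 fl/fl lines with DMSO and with Senexin B and in CDK8-deficient lines with DMSO and with Senexin B, and its log2 differences ran from -0.15 to 0.06 in the 4 pairwise comparisons. Those of Srebf2 ran from -0.12 to 0.14 and those of Scap from -0.08 to -0.05. Insig1, an SREBP target that retains SCAP, was at 61.9, 63.1, 47.9 and 35.9 CPM with DMSO and at 53.2, 93.6, 97.4 and 94.1 CPM with Senexin B in Cdk8 fl/fl lines. Line 1 again stood below, and the fitted log2 change of 0.71 ± 0.25 (SE; edgeR, adjusted p = 0.9998) did not pass. In CDK8-deficient lines Insig1 was 0.350-fold in line 1 and 1.98-fold in line 3. None of the 14 listed regulators, of which 12 were tested, passed in any comparison. Those with the lowest p with DMSO by genotype were Nr1h2, a liver X receptor (-0.56 ± 0.13, SE), and Mbtps2, a protease that releases SREBP (-0.47 ± 0.17), and with Senexin B in Cdk8 fl/fl lines Insig1 and Insig2 (-0.49 ± 0.18), which were also those over the 8 lines (0.34 ± 0.27 and -0.36 ± 0.11).

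The cholesterol genes, targets of SREBP2, were counted beside the 10 genes. All 21 tested of 22 were fitted higher with Senexin B in Cdk8 fl/fl lines, 13 of them at an unadjusted p under 0.05, with a median log2 change of 0.82, and none passed; over all genes 52.9% were fitted higher and 1.89% were higher at that limit. With DMSO 20 of 21 were fitted higher in CDK8-deficient lines, by a median of 0.42, and 4 had an unadjusted p under 0.05, against 50.3% and 2.38% of all genes. Their median log2 ratio by line was -0.39, 1.09, 1.10 and 1.01 in Cdk8 fl/fl lines 1 to 4 and -0.98, 0.01, 0.95 and 0.12 in CDK8-deficient lines 1 to 4, so that the first line of each genotype was the lowest, as for the fatty acid genes. The order of the others differed in part, since Cdk8 fl/fl line 2 was level with lines 3 and 4 for cholesterol genes but below them for fatty acid genes, and CDK8-deficient line 4 was above 0 for the former and below 0 for the latter. The lowest p values were those of the sterol enzymes Lss (1.13 ± 0.33, SE) and Mvd (1.56 ± 0.50) in Cdk8 fl/fl lines, of Acat2 (0.88 ± 0.25) and Mvd (0.73 ± 0.25) by genotype with DMSO, and of Sc5d (0.39 ± 0.11) over the 8 lines, where 22 of 22 were fitted higher and 5 met the unadjusted limit, against 48.9% and 7.79% of all genes. In the interaction 21 of 22 cholesterol genes had a negative term, where 49.5% of all genes had a positive one. Their median term was -0.71, against -0.36 for the 10 fatty acid genes, so negative terms were not particular to the latter. No gene of the cholesterol list passed in any comparison. With Senexin B 21 of 22 were fitted lower in CDK8-deficient lines, by a median of -0.385, where 49.4% of all genes were fitted higher. With the libraries of each line added, 14 of 22 were lower (median -0.063), as were 7485 of 14791 genes. The study's own gene set enrichment analysis by genotype lists cholesterol homeostasis as lower in CDK8-deficient cells. This direction is opposite to that of the fits with DMSO here and the same as that of the fits with Senexin B. The study's gene set and method were not those used here, and the difference from the fits with DMSO was not tested.

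Other genes of fatty acid metabolism were counted beside the members, and none of them passed. The counts with Senexin B in Cdk8 fl/fl lines are to be read against 52.9% of all genes fitted higher there, with a median of 0.02. In Cdk8 fl/fl lines 7 of 9 tested supply genes were fitted higher with Senexin B (median 0.34), led by the citrate carrier Slc25a1 (0.86 ± 0.35, SE) and Mcat (0.34 ± 0.18); over the 8 lines Acss1 (0.52 ± 0.17) and Slc25a1 (0.58 ± 0.21) led, and by genotype with DMSO Mid1ip1 (-0.43 ± 0.22) and Idh1 (0.56 ± 0.29). Of 13 tested relatives of the members 9 were higher in Cdk8 fl/fl lines (median 0.13), led by the elongation-cycle enzymes Hsd17b12 (0.36 ± 0.14) and Tecr (0.51 ± 0.35), with Elovl4 (0.54 ± 0.20) and Hsd17b12 (0.15 ± 0.09) leading over the 8 lines and Elovl1 (-0.24 ± 0.19) and Degs1 (-0.39 ± 0.31) by genotype. Of 15 tested genes of fatty acid activation and glycerolipid assembly 10 were higher in Cdk8 fl/fl lines (median 0.09), with Acsl3 (0.54 ± 0.20) and Agpat3 (-0.38 ± 0.22) leading there, Lpin1 (0.60 ± 0.21) and Dgat2 (-0.76 ± 0.28) over the 8 lines, and Agpat3 (-0.93 ± 0.42) and Dgat1 (-0.34 ± 0.19) by genotype. Of 13 tested oxidation genes 6 were higher and 7 lower in Cdk8 fl/fl lines (median -0.03), where Hadhb (-0.48 ± 0.19) and Ppard (-0.45 ± 0.33) led, while Hadhb (-0.36 ± 0.11) and Hadha (-0.15 ± 0.07) led over the 8 lines and Acads (0.31 ± 0.12) and Cpt2 (0.21 ± 0.14) by genotype. In the Mediator kinase module Cdk8 (-0.55 ± 0.14) and Med13l (-0.40 ± 0.12) led by genotype, Med12 (0.44 ± 0.30) and Cdk19 (-0.17 ± 0.23) in Cdk8 fl/fl lines, and Med12 (0.23 ± 0.12) and Ccnc (-0.18 ± 0.10) over the 8 lines.

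Over the 16 libraries, which share lines in pairs, the members were unequally alike. Against the mean of the other 9 members, Pearson's r of log2 CPM was highest for Fads2 (0.91), Scd2 (0.81) and Acly (0.76) and lowest for Fads1 (0.35), Elovl6 (0.40) and Scd1 (0.41). The closest pair was Acaca and Fasn (r = 0.85), the enzymes of adjacent steps, and the least alike Elovl6 and Scd1 (r = -0.19). The other genes most like the mean of the members included Cars2 (r = 0.92), Gm3571 (0.92), the sterol demethylase Cyp51 (0.92) and Aacs, which makes acetoacetyl-CoA in the cytosol (0.91). Insig1 reached 0.88, Srebf2 0.76, Srebf1 0.43 and Cdk8 -0.26. These coefficients describe the 16 libraries and were not tested.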

How the data were processed

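RNA of 16 cultures (8 lines, each with DMSO and with Senexin B) was measured by single-end RNA-seq. The authors used Trimmomatic for trimming, STAR for mapping and featureCounts 1.5.1 for counting over exons of union gene models (GENCODE M13, GRCm38). The deposited unit is raw counts per gene, with no normalization, and per the file headers no strand option was set. Groups came from the labels. Counts were tested in R 4.3.3 with edgeR 4.0.16: TMM scaling, filterByExpr, and quasi-likelihood tests with robust dispersions, adjusted by Benjamini-Hochberg over all genes tested. The limits were an adjusted p under 0.05 and a fold over 2. Only the groups compared entered a fit, without a block within a genotype, and with the line as a block over the 8 lines and for the interaction. CPM are TMM-scaled over the 16 libraries, FPKM divide them by exon length, and ratios within a line are of CPM. Each SE was computed from the log2 fold change and its F statistic. Fits were tested on simulated data. Cdk8 was compared by a two-sided exact permutation test of log2(CPM + 1). Totals of 13145876 to 18349425 counts limit the precision of the lowest gene, Acss2, most.

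Libraries of the same number within a genotype come from the same line. Their deviations from the group mean correlated at 0.572 to 0.872 over 14162 genes, against at most 0.209 between different lines of the same genotype. Alternatives were DESeq2 1.42.0, RLE factors, no filter, other limits, the block, a fit over the 16 libraries and leaving out each library or line. In 15 of 16 headers the annotation folder is named as modified, without more detail. Promoter windows were those of RefSeq. The genes named beside the 10 were Cdk8, Srebf1, Srebf2, Scap, Insig1, in each wider list any gene that passed or else the 2 with the lowest p by genotype with DMSO, by Senexin B in Cdk8 fl/fl lines and over the 8 lines, and the 5 genes most like the members. Some genes that this rule names are not reported here. The members and all lists were chosen with earlier results of these data known. Summed marker levels outside pro-B cells were at most 4.50 CPM (adipocyte), 0.0819 (hepatocyte), 24.8 (myeloid), 1.87 (T cell), 2.18 (erythroid) and 497 (stromal and endothelial, nearly all Pecam1).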

Additional observations from a re-analysis of the deposited data

Results flagged for a closer look

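Among 60 groups of 4 libraries (the 10 genes and Cdk8, Srebf1, Srebf2, Scap and Insig1 in 4 groups each), 5 had a library that stood apart from the other 3 by Dixon's criterion, and chance gives about 1 in 20 groups. Of these libraries 3 were the Senexin B library of Cdk8 fl/fl line 1. Fads1 was at 192 CPM there, below 226 to 227 CPM in the other 3 lines. Insig1 was at 53.2 CPM there, below 93.6 to 97.4 CPM. Cdk8 was at 89.4 CPM there, above 55.2 to 56.8 CPM. In the CDK8-deficient Senexin B group Cdk8 was at 61.7 CPM in line 2, above 41.2 to 43.9 CPM in the others. In the CDK8-deficient DMSO group Scap was at 138 CPM in line 4, below 166 to 171 CPM. The mean correlation of the Senexin B library of Cdk8 fl/fl line 1 with the other 15 libraries was 0.937, within the range of 0.936 to 0.950 over the 16 libraries.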

How the results depend on the processing

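No member passed the limits in the first set of alternatives. The 2 passes of the added alternative, Fads2 and Acss2 with the line block and without Cdk8 fl/fl line 1, are given with the result. In Cdk8 fl/fl lines all 170 values of the 10 genes over the alternatives of the Senexin B comparison stayed positive. Counts of genes that passed moved as follows, and the cause was not tested. By genotype with DMSO the count was 1, 32 with DESeq2, 0 with the shared replicate number as a block and 0 whichever library was left out. By genotype with Senexin B it was 0, 10 with DESeq2, and 1 without the filter, with all 16 libraries in one fit or at an adjusted p limit of 0.1. For Senexin B in Cdk8 fl/fl lines it was 0, 19 with DESeq2, 3 without the filter, 45 with the line as a block, and 0 to 538 when a library or line was left out. In CDK8-deficient lines it was 0, 7 with the block and 0 to 31 when a library or line was left out (31 with the block and without line 1). Over the 8 lines it was 134, 0 without the replicate block, 373 without the fold limit and 80 to 178 when a line was left out (80 without Cdk8 fl/fl line 3 and 88 without line 4). The interaction count was 0 and was 2 without the filter. By genotype over summed libraries it was 1, 24 with DESeq2 and 0 to 2 when a line was left out. Members whose direction reversed when a library or line was left out ran over these log2 ranges. By genotype with DMSO these were Scd1 (-0.057 to 0.24) and Scd2 (-0.068 to 0.21). By genotype with Senexin B these were Acly (-0.23 to 0.15), Acaca (-0.23 to 0.13), Fasn (-0.12 to 0.30), Elovl5 (-0.31 to 0.038) and Elovl6 (-0.43 to 0.11). For Senexin B in CDK8-deficient lines these were Acss2 (-0.42 to 0.49), Acly (-0.23 to 0.091), Fasn (-0.15 to 0.30), Fads1 (-0.072 to 0.16), Fads2 (-0.53 to 0.39) and Scd2 (-0.17 to 0.28), and Fads2 also reversed to -0.0094 without the filter and -0.092 with the replicate block. Over the 8 lines these were Acly (-0.023 to 0.18) and Elovl6 (-0.20 to 0.22), and in the interaction Elovl5 (-0.21 to 0.10). The shared replicate number of the genotypes marked no common line, its deviations correlating at -0.15 to 0.42, and as a block it changed no member's call. Cdk8 fl/fl line 4 did correlate more with CDK8-deficient line 4 than with any other CDK8-deficient line in both treatments. The values were 0.261 against at most 0.08 with DMSO and 0.424 against at most -0.003 with Senexin B, and the cause was not tested. A pseudocount of 0.1 kept the Cdk8 difference at -0.56 with DMSO and -0.43 with Senexin B.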
